A study of Homo sapiens with 9 samples.

Results

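The 37 mitochondrially encoded genes of HCT116 cells were described by their share of the RNA library and gene by gene. They were taken as every gene whose symbol begins with MT-, which selected 37 of the 31558 genes in the count table and every gene the table places on the mitochondrial chromosome. By the gene type in the table they are 13 mRNAs, 2 rRNAs and 22 tRNAs. HCT116 is an established human colorectal cancer cell line. For this RNA-seq the paper describes transfected cells, with a free plasmid as control. Its methods describe the pTSB vector as lentiviral (pTSB-GFP-puro) and as transfected plasmid in different places. The paper does not say whether the cells of this RNA-seq were stable lines. The 3 groups, each with 3 biological replicates, differed in what the vector carried: the long noncoding RNA CRLM1 (CRLM1-OE), the antisense sequence of CRLM1 (Anti) or no insert (Ctrl). All 9 samples thus share the vector backbone, and CRLM1 came from a transgene rather than from its own locus. RNA was extracted with TRIZOL, and the libraries were read from both ends. The labels give the molecule as polyA RNA, but how it was selected is not given in the sources used here, which limits how levels of rRNAs, tRNAs and MT-ND6 can be read.

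The human mitochondrial genome is a small circle that is transcribed from both strands into long precursor RNAs. The heavy-strand transcript carries both rRNAs, most tRNAs and nearly every mRNA, and the light-strand transcript carries MT-ND6 and a minority of the tRNAs. The precursors are cut at the tRNAs that lie between the other genes, so that 1 precursor yields many RNAs whose levels can then differ by stability. The mRNAs encode core subunits of respiratory complexes I, III and IV and of the ATP synthase (complex V), and the rest of each complex is encoded in the nucleus. Most mature mitochondrial mRNAs carry poly(A) tails and the rRNAs short ones, while the mRNA of MT-ND6 and the mature tRNAs are known to lack them.

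In GENCODE version 44 on GRCh38, all 37 genes were found by their identifiers on chrM, a circle of 16569 bp. The plus strand holds 28 of them (heavy-strand transcript) and the minus strand holds 9, namely MT-ND6 and 8 tRNAs. Whether strand was used in the counting is not given in the sources used here, so reads of these 9 genes cannot be told apart from antisense reads of the far more abundant heavy-strand transcript.

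Total counts ranged from 33302292 to 44514692 per sample, and 3 counts, the smallest signal considered, equalled 0.0674 to 0.0901 CPM (counts scaled to a common library size). Intervals from counting would cover counting error only. CRLM1, listed as RP4-710M16.2, had between 32751 and 38704 counts in the CRLM1-OE samples, 0 in each Ctrl sample and between 1540 and 1951 in the Anti samples. The epithelial markers EPCAM, KRT8, KRT18, KRT19 and CDH1 were abundant in every sample, with at least 3995 counts each. PTPRC (leukocytes) had at most 2 counts, COL1A2 (fibroblasts) at most 1 and PECAM1 (endothelium) at most 6, whereas the other fibroblast marker, COL1A1, had between 617 and 652 in CRLM1-OE and between 305 and 419 in the controls. Its part in the results was not tested. Counts were scaled by edgeR's TMM factors, and levels are given as TMM-scaled CPM. Relative to TMM, scaling by total counts alone moved the median log2 difference of the expressed genes from -0.04 to 0.11 for CRLM1-OE against Ctrl, from -0.03 to 0.03 for CRLM1-OE against Anti and from -0.00229 to 0.10 for Anti against Ctrl. Gene by gene differences below are relative to the TMM baseline.

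The mitochondrial RNAs took a smaller part of the library in CRLM1-OE than in either control and a larger part in Anti than in Ctrl. Their summed counts made up 5.62%, 5.70% and 5.71% of the total in the 3 CRLM1-OE samples, 6.39%, 6.53% and 6.54% in Ctrl and 7.18%, 7.28% and 7.17% in Anti. No sample of one group reached the range of another. The means were 5.68% ± 0.0441 (SD, n = 3), 6.49% ± 0.0851 (SD, n = 3) and 7.21% ± 0.0627 (SD, n = 3). CRLM1-OE was thus lower than Ctrl by 0.810 percentage points (a difference of -0.810 with SE 0.0553) and lower than Anti by 1.53 (a difference of -1.53 with SE 0.0443), while Anti exceeded Ctrl by 0.725 (SE 0.0610). Each of these 3 comparisons gave p = 0.1 in a two-sided exact permutation test, the smallest value that 3 samples against 3 allow. In bulk RNA, fewer mitochondrial transcripts per cell and more of the other RNA cannot be told apart.

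The classes did not follow the total alike. The mRNAs took 4.51% ± 0.0364 (SD, n = 3) of the library in CRLM1-OE, against 5.00% ± 0.0596 in Ctrl and 5.64% ± 0.0478 in Anti. The rRNAs took 1.16% ± 0.0250, 1.49% ± 0.0261 and 1.57% ± 0.0202. The tRNA genes were instead highest in CRLM1-OE, with 0.00243% ± 0.000121 there, against 0.00164% ± 0.000185 in Ctrl and 0.00192% ± 0.000102 in Anti. For each class the 3 groups were again separated without overlap (exact permutation p = 0.1 for each pair). The share of the tRNA genes in CRLM1-OE was 1.48 times that in Ctrl, whereas that of the rRNAs was 0.782 times and that of the mRNAs 0.903 times.

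**Figure D1:**
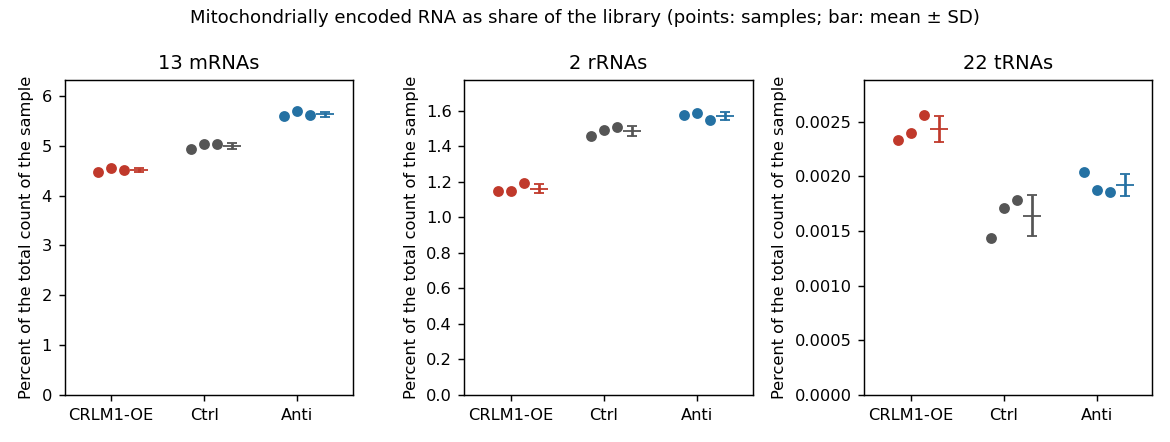
Share of the library taken by the 13 mitochondrial mRNAs, 2 rRNAs and 22 tRNAs, as percent of each sample's total count, for the 3 groups; points are samples and bars mean ± SD. The CRLM1-OE samples are the lowest for mRNAs (4.47% to 4.55%) and rRNAs (1.15% to 1.19%) and the highest for tRNAs.

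Gene by gene, the members were tested with edgeR's quasi-likelihood test within a fit of all genes with at least 1 count in the 6 samples compared, adjusted over all of them. A gene passed at an adjusted p of at most 0.05 and was called when the change was also at least 2-fold. All 37 members were tested in each comparison. The 3 comparisons share samples pairwise, so they are given side by side. This fit assigned each gene the spread of its abundance class, and its p-values for the abundant mRNAs are therefore very small. For members with more spread between replicates, the largest p over the alternative tests is given beside the value.

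Against Ctrl, 10 members were higher in CRLM1-OE (15.0% of all genes tested passed as higher) and 11 were lower (16.8% of all genes). By class, 4 mRNAs and 6 tRNAs rose, and 9 mRNAs and both rRNAs fell. Against Anti, 5 members were higher (background 17.1%) and 12 were lower (background 18.5%), comprising 2 mRNAs and 3 tRNAs that rose and 10 mRNAs and both rRNAs that fell. Between the controls, 10 members were higher in Anti than in Ctrl (background 11.5%) and 4 were lower (background 12.2%). These backgrounds include genes with very few counts, which could hardly pass. With 10 counts required of each sample, 4516 of 14833 genes passed as higher against Ctrl and 4674 as lower. Against Anti 5015 and 5266 of 14900 did, and between the controls 3529 and 3659 of 14842. An excess of the members over either background was not tested. Most changes of members that passed were below 2-fold. Called as higher in CRLM1-OE were 2 tRNA genes against Ctrl, MT-TF and MT-TY (2.50% of all genes were called as higher), and 1 against Anti, MT-TF (background 3.09%). Called as lower were 0 members against Ctrl (background 0.915%) and 0 against Anti (background 2.56%), although 11 and 12 passed the edgeR test without the fold limit. Between Anti and Ctrl 0 members were called in either direction (background 0.683% higher and 0.380% lower). The median log2 difference of the 13 mRNAs was -0.30 against Ctrl, -0.39 against Anti and 0.08 for Anti against Ctrl, where all genes tested had medians of 0.02, -0.02 and 0.0047.

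**Figure D2:**
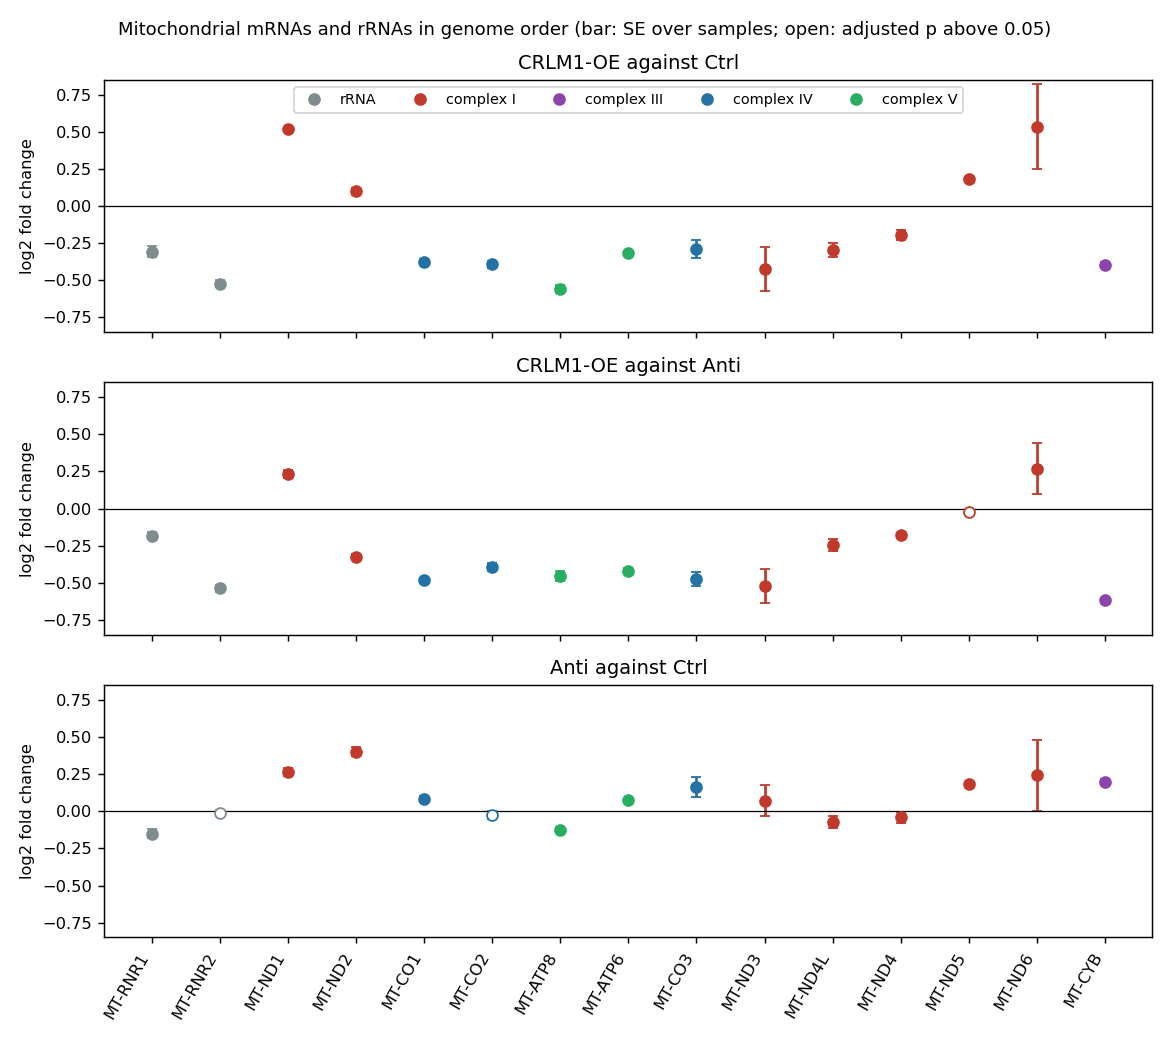
Log2 fold change of the 2 rRNAs and 13 mRNAs in their order along the mitochondrial genome for the 3 comparisons, coloured by rRNA or respiratory complex; bars are the SE over samples and open symbols did not pass. In CRLM1-OE, complex IV, complex V and MT-CYB sit below 0 against both controls, while MT-ND1 and MT-ND6 sit above 0 against both.

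The rRNAs lie near the start of the heavy-strand transcript. MT-RNR2, the 16S rRNA of the large mitochondrial ribosomal subunit (chrM:1671-3229, plus strand), had 9466, 9394 and 9802 TMM-scaled CPM in CRLM1-OE, 13508, 13875 and 13862 in Ctrl and 13879.7, 14111 and 13728 in Anti. The CRLM1-OE samples were well below both controls, which overlapped. The log2 difference was -0.52 (SE 0.0227) against Ctrl and -0.54 (SE 0.0221) against Anti, each with an edgeR adjusted p at the smallest value written, 1e-300. Anti and Ctrl differed by -0.00899 on the log2 scale (SE 0.0171, edgeR adjusted p = 0.646), but under total counts MT-RNR2 was higher in Anti by 0.10 (edgeR adjusted p = 5.72e-16).

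MT-RNR1, the 12S rRNA of the small subunit (chrM:648-1601, plus strand), changed less. Its levels were 1524, 1508 and 1587 in CRLM1-OE, 1833, 1947 and 1945 in Ctrl and 1730.1, 1778 and 1743 in Anti. Here the 3 groups were separate, with Anti between the other two. The log2 difference of CRLM1-OE was -0.31 (SE 0.0365) against Ctrl and -0.18 (SE 0.0253) against Anti. Anti was lower than Ctrl by a log2 difference of -0.15 (SE 0.0311), which did not pass with limma on FPKM (largest adjusted p 0.231). As both rRNAs come from 1 precursor, their ratio was taken within each sample, free of library scaling. MT-RNR2 had 6.21 ± 0.0268 (SD, n = 3) counts per count of MT-RNR1 in CRLM1-OE, against 7.21 ± 0.140 in Ctrl and 7.95 ± 0.0728 in Anti, with no overlap between any pair of groups.

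Complex I (NADH dehydrogenase), which passes electrons from NADH to ubiquinone, has 7 mitochondrially encoded subunits, and its mRNAs moved in both directions. Against Ctrl 4 were higher in CRLM1-OE and 3 lower, and against Anti 2 were higher, 4 lower and 1 did not pass. MT-ND1, the first mRNA after the rRNAs (chrM:3307-4262), had 994, 1002 and 1024 TMM-scaled CPM in CRLM1-OE, 696, 708 and 705 in Ctrl and 857, 886 and 833 in Anti. It was the mRNA with the clearest rise, with the groups separate and Anti again between the others. The log2 difference of CRLM1-OE was 0.52 (SE 0.0149, edgeR adjusted p = 2.12e-151) against Ctrl and 0.23 (SE 0.0286, edgeR adjusted p = 1.82e-43) against Anti, and Anti exceeded Ctrl by 0.26 (SE 0.0265). Since MT-RNR2, the neighbour of MT-ND1 beyond 1 tRNA, fell in the same samples, the counts of MT-ND1 per count of MT-RNR2 were 0.105 ± 0.00116 (SD, n = 3) in CRLM1-OE, against 0.0511 ± 0.000371 in Ctrl and 0.0618 ± 0.00104 in Anti.

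MT-ND2 (chrM:4470-5511) had 1464, 1469 and 1480.0 CPM in CRLM1-OE, 1332, 1413 and 1377 in Ctrl and 1805, 1876 and 1857 in Anti. Anti was the highest group, and CRLM1-OE lay just above Ctrl. The log2 difference of CRLM1-OE was 0.10 (SE 0.0250) against Ctrl and -0.32 (SE 0.0174) against Anti, and that of Anti against Ctrl was 0.40 (SE 0.0298), the largest among the 13 mRNAs in that comparison. MT-ND5, the longest mRNA (chrM:12337-14148), had 2282, 2290.1 and 2302 in CRLM1-OE, 2028, 2032 and 2005 in Ctrl and 2317, 2386 and 2314 in Anti. It was higher in CRLM1-OE than in Ctrl by 0.18 on the log2 scale (SE 0.00711), and higher in Anti than in Ctrl by 0.18 (SE 0.0156). Between CRLM1-OE and Anti the log2 difference of -0.03 (SE 0.0148) did not pass with edgeR (adjusted p = 0.153), although the values did not overlap. Under total counts it turned to 0.03 and passed in that direction (edgeR adjusted p = 0.0259), and over all alternatives the adjusted p ran from 0.00561 to 0.930.

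The other heavy-strand complex I mRNAs were lower in CRLM1-OE. MT-ND4 (chrM:10760-12137) had 5946, 6005 and 6060.1 CPM in CRLM1-OE, 6613, 7147 and 6890.4 in Ctrl and 6713, 6974 and 6767 in Anti. MT-ND4L, which shares a precursor mRNA with MT-ND4 (chrM:10470-10766), had 1191, 1193 and 1281 in CRLM1-OE, 1434, 1557 and 1510 in Ctrl and 1434, 1496 and 1427 in Anti. For both mRNAs the CRLM1-OE samples lay below all control samples and the controls overlapped. Log2 differences against Ctrl and Anti were -0.20 (SE 0.0333) and -0.18 (SE 0.0185) for MT-ND4, and -0.30 (SE 0.0489) and -0.25 (SE 0.0408) for MT-ND4L. That of MT-ND4 against Ctrl did not pass with limma on FPKM, where the adjusted p was 0.146, the largest over its alternatives. The differences between Anti and Ctrl, -0.04 for MT-ND4 and -0.07 for MT-ND4L, passed in the edgeR fit but were lost in alternatives, with adjusted p up to 0.899 and 0.761, and turned positive under total counts (0.07 and 0.03).

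MT-ND3 (chrM:10059-10404) had 546, 549.8 and 688 CPM in CRLM1-OE, 698, 817 and 882 in Ctrl and 869, 882 and 814 in Anti. One CRLM1-OE sample came close to the lowest Ctrl sample, so the spread was wide. The log2 difference was -0.43 (SE 0.148) against Ctrl, where alternatives gave adjusted p up to 0.129, and -0.52 (SE 0.115) against Anti, where they gave at most 0.0310. Anti and Ctrl overlapped (0.07, SE 0.105, adjusted p up to 0.729).

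MT-ND6 is the mRNA of the light-strand transcript (chrM:14149-14673, minus strand). It had 90.1, 93.6 and 130 CPM in CRLM1-OE, 51.7, 77.6 and 88.9 in Ctrl and 84.0, 84.1 and 92.6 in Anti. CRLM1-OE lay above Ctrl by a narrow margin and overlapped Anti. The log2 difference of 0.53 (SE 0.288) against Ctrl passed in the edgeR fit but had an adjusted p of up to 0.297 over the alternatives, and those of 0.27 (SE 0.173) against Anti and 0.24 (SE 0.239) between the controls had up to 0.378 and 0.571. The bases on each side of the MT-ND5 and MT-ND6 boundary are shown because the genes abut tail to tail, so that reads from either can cross it; capitals mark the MT-ND6 end, read on the plus strand of GRCh38 (chrM:14125-14172).
MT-ND5/MT-ND6: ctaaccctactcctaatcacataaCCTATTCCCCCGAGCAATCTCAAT

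**Figure D3:**
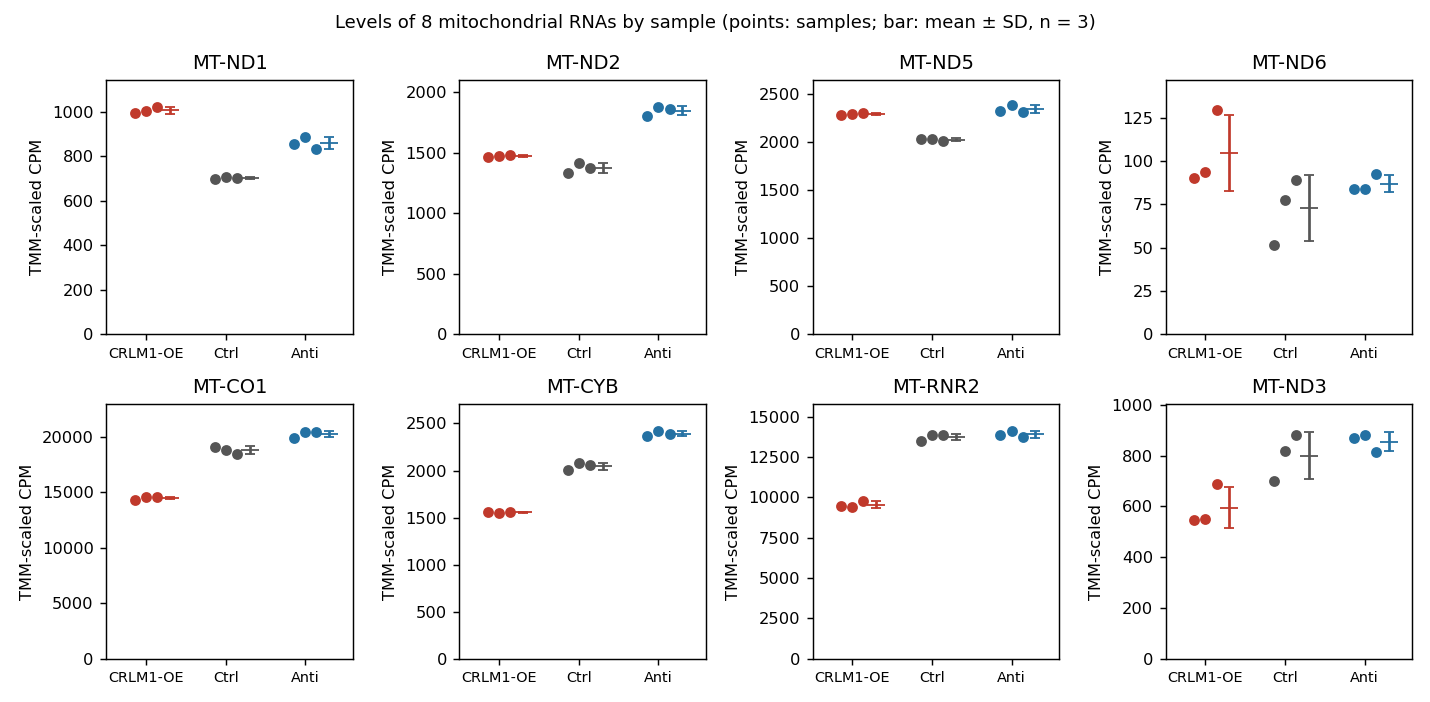
TMM-scaled CPM of 8 mitochondrial RNAs in each sample; points are samples and bars mean ± SD (n = 3), and each axis starts at 0. MT-ND1 is highest and MT-RNR2, MT-CO1 and MT-CYB are lowest in CRLM1-OE, MT-ND2 is highest in Anti, and MT-ND6 and MT-ND3 spread widely within groups.

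MT-CYB, the mitochondrially encoded subunit of complex III (ubiquinol-cytochrome c reductase), is the last mRNA on the heavy-strand transcript (chrM:14747-15887). It had 1556, 1547 and 1564 CPM in CRLM1-OE, 2004, 2078 and 2059 in Ctrl and 2362, 2416 and 2391 in Anti. The groups were widely separated compared with the spread inside each. The log2 difference of CRLM1-OE was -0.39 (SE 0.0163) against Ctrl and -0.62 (SE 0.0104) against Anti, the largest fall of any mRNA against Anti, and Anti exceeded Ctrl by 0.20 (SE 0.0183).

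Complex IV (cytochrome c oxidase), which reduces oxygen, has 3 mitochondrially encoded subunits, and its 3 mRNAs were lower in CRLM1-OE than in both controls. MT-CO1, the catalytic subunit (chrM:5904-7445), had 14349, 14574 and 14552 CPM in CRLM1-OE, 19130.1, 18840.4 and 18482.5 in Ctrl and 19926, 20456 and 20426 in Anti. MT-CO2, which receives electrons from cytochrome c (chrM:7586-8269), had 6092, 6182 and 5975 in CRLM1-OE, 7807, 8152 and 8000.0 in Ctrl and 7816, 7981 and 8215 in Anti. MT-CO3 (chrM:9207-9990) had 3965, 3925 and 3744 in CRLM1-OE, 4416, 4750.3 and 5051 in Ctrl and 5522, 5570.1 and 5112 in Anti. In each case every CRLM1-OE sample was below every control sample.

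The log2 differences against Ctrl and Anti were -0.38 (SE 0.0161) and -0.48 (SE 0.0142) for MT-CO1, and -0.39 (SE 0.0230) and -0.39 (SE 0.0252) for MT-CO2. For MT-CO3 they were -0.29 (SE 0.0616) and -0.47 (SE 0.0469), and alternatives gave adjusted p up to 0.0681 and 0.140, so that whether this mRNA passed depended on the test. Anti exceeded Ctrl for MT-CO1 by 0.08 (SE 0.0189) and for MT-CO3 by 0.16 (SE 0.0684, adjusted p up to 0.294). MT-CO2 did not pass between the controls (-0.02, SE 0.0275, edgeR adjusted p = 0.269), but it passed under total counts in the other direction (0.08, edgeR adjusted p = 5.67e-10) and with limma voom (adjusted p = 1.99e-12), and over all alternatives the adjusted p reached 0.998.

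Complex V makes ATP, and both its mitochondrially encoded subunits belong to the membrane part that conducts protons. MT-ATP6 (chrM:8527-9207) had 3151, 3207 and 3103 CPM in CRLM1-OE, 3920.4, 3971 and 3918 in Ctrl and 4208, 4288 and 4192 in Anti. MT-ATP8 (chrM:8366-8572) had 1133, 1143 and 1204 in CRLM1-OE, 1698, 1719 and 1714 in Ctrl and 1556, 1599 and 1629 in Anti. Both were lowest in CRLM1-OE, but Anti was the highest group for MT-ATP6 and the middle one for MT-ATP8. Against Ctrl and Anti, CRLM1-OE differed by -0.32 (SE 0.0150) and -0.42 (SE 0.0170) on the log2 scale for MT-ATP6 and by -0.56 (SE 0.0278) and -0.46 (SE 0.0334) for MT-ATP8, the largest fall of any mRNA against Ctrl. Anti against Ctrl was 0.08 (SE 0.0120) for MT-ATP6 and -0.13 (SE 0.0199) for MT-ATP8, and the latter did not pass under total counts or with limma on FPKM (largest adjusted p 0.514).

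The pair is translated from 1 mRNA in overlapping reading frames, and the count table holds a value for each. The overlap of 46 bases is shown in capitals within chrM:8515-8584 (plus strand, GRCh38), because reads within it fit both genes and the counting rule for them is not given in the sources used here. The end of MT-ND4L overlaps the start of MT-ND4 in the same way by 7 bases, shown within chrM:10740-10786.
MT-ATP8/MT-ATP6: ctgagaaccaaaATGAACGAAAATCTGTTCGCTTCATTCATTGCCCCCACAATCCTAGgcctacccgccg
MT-ND4L/MT-ND4: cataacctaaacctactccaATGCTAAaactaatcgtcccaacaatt
Although each pair shares 1 RNA, the counts of MT-ATP8 per count of MT-ATP6 were 0.368 ± 0.0173 (SD, n = 3) in CRLM1-OE, against 0.434 ± 0.00249 in Ctrl and 0.377 ± 0.0101 in Anti. Ctrl was above the other groups, which overlapped. For MT-ND4L per MT-ND4 the ratios were 0.203 ± 0.00692, 0.218 ± 0.00109 and 0.213 ± 0.00184, and here too CRLM1-OE and Anti overlapped.

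Per exon length, as FPKM, the order of the mRNAs within Ctrl ran from MT-CO1 at 10310.2 ± 209.9 (SD, n = 3) and MT-CO2 at 9864 ± 158.6, through MT-ATP8 at 6980.3 ± 13.2, MT-CO3 at 5106 ± 329.5 and MT-ATP6 at 4883 ± 19.7, to MT-ND5 at 943 ± 8.09, MT-ND1 at 621 ± 2.20 and MT-ND6 at 117 ± 30.3. The FPKM of MT-CO3 and MT-ATP6 differed by less than the spread of MT-CO3, and MT-ND4L at 4267 ± 152 and MT-ND4 at 4219.5 ± 140.1 also lay within each other's spread. MT-CYB lay above MT-ND2 in Ctrl, at 1515 ± 20.5 against 1114 ± 26.7 FPKM, but below it in CRLM1-OE, at 1248 ± 4.18 against 1292 ± 7.65.

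To see composition apart from the total, each mRNA was taken as percent of the summed counts of the 13. The complex I mRNAs made up 29.3%, 29.2% and 30.1% of the mRNA counts in CRLM1-OE, 24.8%, 25.8% and 25.5% in Ctrl and 25.4%, 25.6% and 25.2% in Anti. The CRLM1-OE samples were above all control samples, by 4.12 points over the mean of either control, while the controls overlapped and their means of 25.4% ± 0.527 (SD, n = 3) and 25.4% ± 0.239 differed by 0.00237 points. Complex IV was correspondingly lower in CRLM1-OE, at 56.8% ± 0.472 against 59.98% ± 0.461 in Ctrl and 59.98% ± 0.213 in Anti. Complex V followed another order, with 10.03% ± 0.0415 in CRLM1-OE, against 10.7% ± 0.0884 in Ctrl and 10.4% ± 0.0229 in Anti. The exact permutation p was 0.1 for each pair of groups that did not overlap.

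Within the complex I group, MT-ND5 differed most between CRLM1-OE and Ctrl, with 5.33% ± 0.0203 of mRNA counts in CRLM1-OE, against 3.84% ± 0.0599 in Ctrl and 4.17% ± 0.0349 in Anti. MT-ND1 took 2.34% ± 0.0307, 1.34% ± 0.00671 and 1.53% ± 0.0380, and MT-ND4 took 13.96% ± 0.0878, 13.1% ± 0.329 and 12.1% ± 0.101. MT-ND4, lower in CRLM1-OE in CPM, was thus higher as a share of the pool, and its share differed most from Anti, by 1.81 points. The equal sums of the controls covered unequal members, since Anti exceeded Ctrl for MT-ND2 by 0.676 points and fell short of it for MT-ND4 by a difference of -0.942 points, both without overlap. Of the 13 mRNAs, 10 had shares that did not overlap between CRLM1-OE and Ctrl, and MT-CO3, MT-ND3 and MT-ND4L overlapped. By TMM-scaled CPM, 18.3% of all genes tested lay above Ctrl without overlap and 19.3% below, and these include genes with very few counts. An excess over these rates was not tested. The shares of the 13 are parts of the same sum, so they do not move independently.

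**Figure D4:**
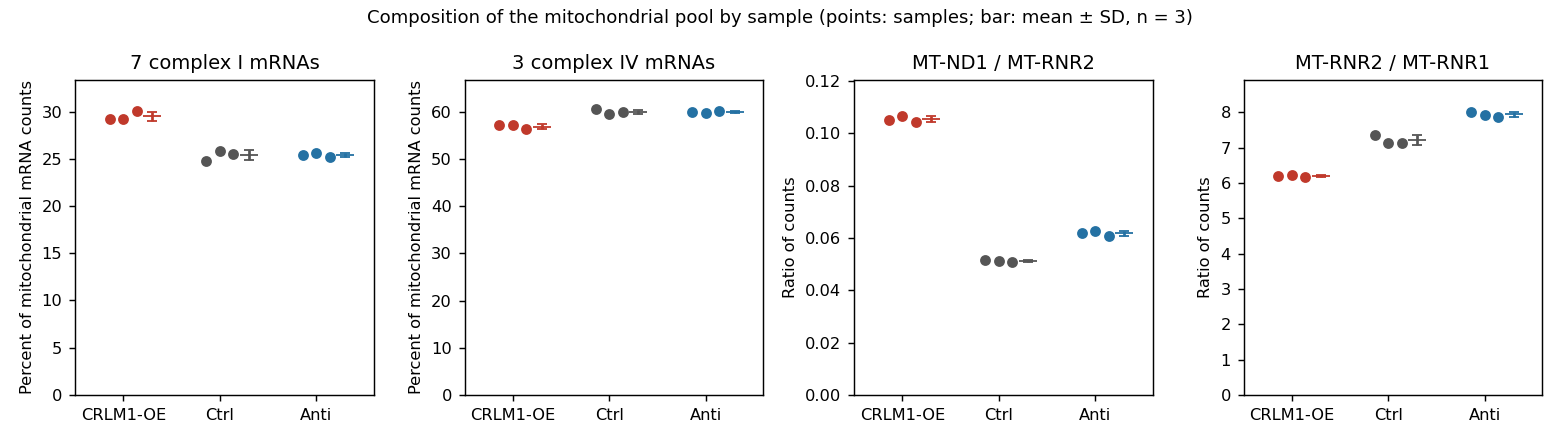
Percent of mitochondrial mRNA counts in the 7 complex I and 3 complex IV mRNAs, and the count ratios of MT-ND1 to MT-RNR2 and of MT-RNR2 to MT-RNR1, for each sample; bars are mean ± SD (n = 3) and axes start at 0. CRLM1-OE stands apart in all 4 panels, with a MT-ND1 to MT-RNR2 ratio of 0.105 against 0.0511 in Ctrl and 0.0618 in Anti, while the controls coincide for both complexes.

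Counts on the tRNA genes were low. At most 194 counts fell on any tRNA gene in a sample, against 2188 to 809627 on an mRNA, and 10 of the 22 tRNA genes had a mean below 10 counts. Genes with a mean of at least 100 were MT-TL1 (leucine) and MT-TC (cysteine). Against Ctrl, 6 of the 22 passed as higher in CRLM1-OE (15.0% of all genes did) and none as lower (16.8% of all genes), and 5 of the 6 belong to the 8 tRNAs of the light-strand transcript. The median log2 difference was 0.64 for the 8 light-strand and 0.12 for the 14 heavy-strand tRNAs. The strands also differed in counts. Means below 10 were those of the heavy-strand MT-TI, MT-TW, MT-TD, MT-TK, MT-TG, MT-TH, MT-TS2, MT-TL2 and MT-TT, but only of MT-TE on the light strand. Genes with so few counts could hardly pass, and strand and counts cannot be told apart here. With MT-ND6 included, 6 of the 9 light-strand genes had CRLM1-OE values above all Ctrl values (18.3% of all genes tested did) and 0 had values below them (19.3% of all genes). Against Anti 5 of the 9 lay above without overlap (background 20.1%) and 0 below (background 21.0%), and between Anti and Ctrl 1 lay above (background 16.9%). By the same measure, 4 of the 14 heavy-strand tRNAs lay above Ctrl in CRLM1-OE and 1 below. Against Anti 4 of these 14 lay above and 1 below.

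MT-TF, the tRNA for phenylalanine, is the only tRNA of the heavy-strand transcript that passed as higher in CRLM1-OE, against either control. It is the first gene of that transcript and directly precedes MT-RNR1. It had 122, 88 and 102 counts in CRLM1-OE, 40, 28 and 39 in Ctrl and 42, 49 and 41 in Anti. Every CRLM1-OE sample was far above every control sample, and the controls overlapped. The change was 2.69-fold against Ctrl (log2 difference 1.43, SE 0.155, edgeR adjusted p = 1.16e-12) and 2.25-fold against Anti (1.17, SE 0.105, edgeR adjusted p = 6.88e-10), and over the alternatives the adjusted p reached 0.000288 and 0.000116 at most. Set against its neighbour, MT-TF had 1.70 ± 0.107 (SD, n = 3) counts per 1000 counts of MT-RNR1 in CRLM1-OE, against 0.512 ± 0.0909 in Ctrl and 0.667 ± 0.0672 in Anti.

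MT-TY, the tRNA for tyrosine, had 34, 36 and 39 counts in CRLM1-OE, 14, 20 and 16 in Ctrl and 27, 27 and 19 in Anti. It was 2.01-fold higher than in Ctrl (log2 difference 1.01, SE 0.266, edgeR adjusted p = 0.00255), just past the fold limit. It fell under that limit without CRLM1-OE replicate 2 (log2 difference 0.93), CRLM1-OE replicate 3 (0.96) or Ctrl replicate 1 (0.80), which left MT-TF as the 1 member called, and the adjusted p stayed at or under 0.0407 over the alternatives. Against Anti its 0.52 (SE 0.174) did not pass (edgeR adjusted p = 0.135). MT-TC had 158, 129 and 169 counts in CRLM1-OE, 99, 97 and 99 in Ctrl and 126, 101 and 109 in Anti, with log2 differences of 0.52 (SE 0.129) against Ctrl and 0.38 (SE 0.103, adjusted p up to 0.0899 over the alternatives) against Anti. MT-TL1, between MT-RNR2 and MT-ND1, had 193, 152 and 176, then 183, 153 and 139, then 194, 164 and 144 counts in the same order of groups, and its log2 difference of 0.03 against Ctrl did not pass (edgeR adjusted p = 0.907). Over the alternatives the p ran from 0.00692, with limma on FPKM, to 0.963, so the tRNA gene between the falling MT-RNR2 and the rising MT-ND1 showed a difference with that test only.

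The 3 other tRNAs that passed against Ctrl were chosen for naming after their values were seen. MT-TA (alanine) had 138, 111 and 136 counts in CRLM1-OE, 84, 77 and 84 in Ctrl and 99, 86 and 81 in Anti, and MT-TN (asparagine) had 60, 48 and 74, 34, 31 and 34, and 53, 47 and 38. Both were without overlap in CRLM1-OE against Ctrl, by 0.54 (SE 0.107) and 0.76 (SE 0.178) on the log2 scale. MT-TQ (glutamine) had 48, 63 and 61 counts in CRLM1-OE, 21, 42 and 32 in Ctrl and 92, 50 and 31 in Anti. Its groups overlapped after scaling for every pair, and although 0.74 (SE 0.438) against Ctrl and 0.77 (SE 0.549) for Anti against Ctrl passed in the edgeR fit, alternatives gave adjusted p up to 0.193 and 0.511.

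The tRNA gene sequences below, on the transcribed strand of GRCh38, are those of the 6 genes that passed as higher against Ctrl. They are shown because at 66 to 73 bases each is far shorter than a read of 151 bases, so that a read on such a gene usually extends into its neighbours. Capitals mark the anticodon. MT-TF lies at chrM:577-647 on the plus strand. The others lie on the minus strand, MT-TQ at chrM:4329-4400 opposite the last bases of MT-TI, and MT-TA at chrM:5587-5655, MT-TN at chrM:5657-5729, MT-TC at chrM:5761-5826 and MT-TY at chrM:5826-5891, a cluster between MT-ND2 and MT-CO1.
MT-TF: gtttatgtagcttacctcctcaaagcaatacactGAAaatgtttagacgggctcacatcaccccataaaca
MT-TQ: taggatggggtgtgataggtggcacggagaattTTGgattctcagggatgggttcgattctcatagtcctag
MT-TA: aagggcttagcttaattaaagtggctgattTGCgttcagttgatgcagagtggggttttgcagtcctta
MT-TN: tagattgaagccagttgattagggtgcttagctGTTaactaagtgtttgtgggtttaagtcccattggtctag
MT-TC: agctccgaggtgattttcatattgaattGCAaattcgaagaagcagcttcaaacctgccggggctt
MT-TY: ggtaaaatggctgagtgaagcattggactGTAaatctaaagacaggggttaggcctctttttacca

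**Figure D5:**
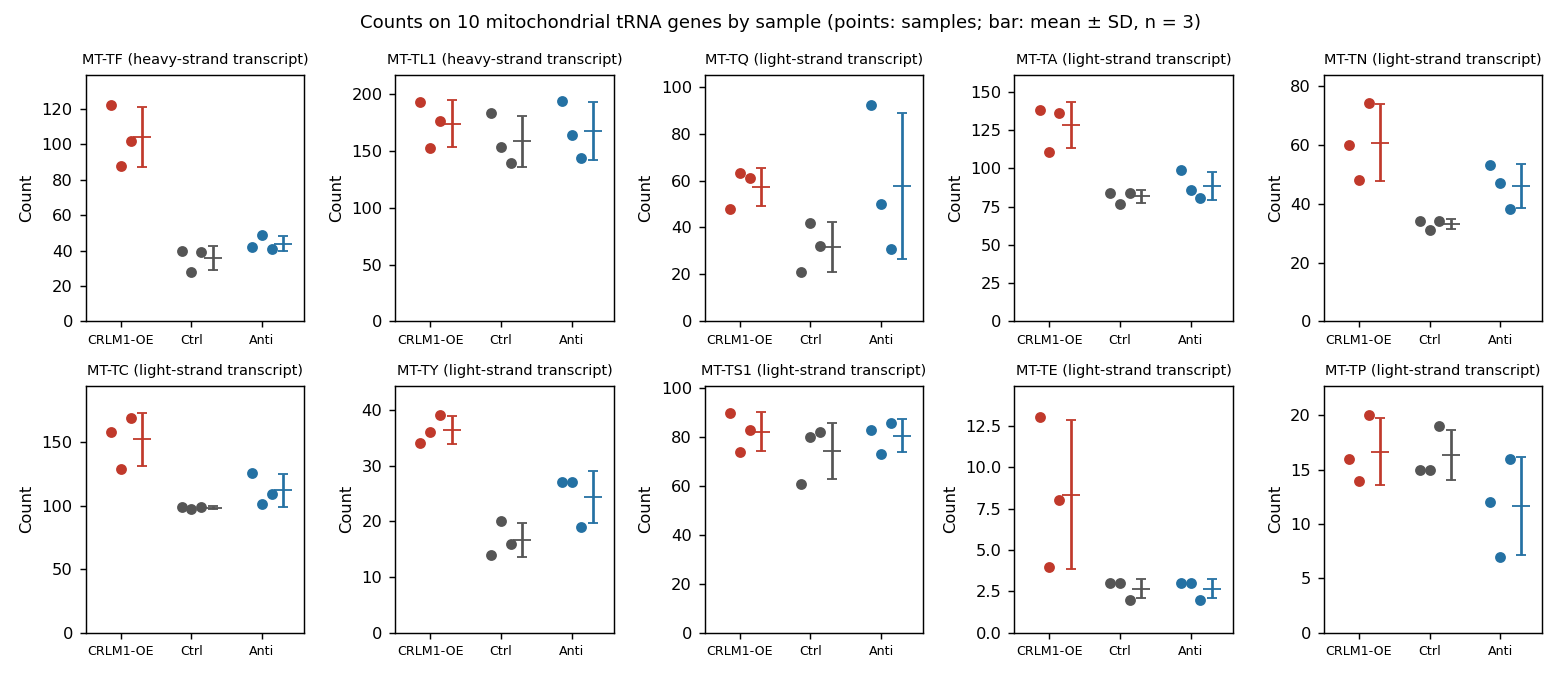
Counts, not scaled for depth, on 10 mitochondrial tRNA genes in each sample, with the strand of the transcript that holds each; points are samples and bars mean ± SD (n = 3). MT-TF, MT-TA, MT-TN, MT-TC and MT-TY have their highest mean in CRLM1-OE, with overlap of single counts for MT-TN, whereas MT-TL1 and MT-TS1 do not separate the groups.

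Other RNAs that lack a poly(A) tail or stay in the nucleus moved in the same samples. RN7SL1, a 7SL RNA of the signal recognition particle, had 78.8, 50.1 and 79.4 TMM-scaled CPM in CRLM1-OE, 162, 220 and 255 in Ctrl and 192, 200.1 and 169 in Anti, and RN7SL2 and RN7SL1 differed from Ctrl by -1.63 and -1.60 on the log2 scale. MALAT1, a long noncoding RNA held in the nucleus, was called as lower against Anti, with 27.3, 25.0 and 24.3 CPM against 60.2, 64.9 and 60.2. Of 7 RNAs listed as untailed or held in the nucleus, 6 fell and 1 rose against Ctrl (4 and 1 under total counts). Against Anti 3 fell, 1 rose and 3 did not pass, whereas both mitochondrial rRNAs fell. Against Ctrl both mitochondrial rRNAs fell too, and the mitochondrial tRNAs that passed were higher. As the 6 are simply those of the list that fell, a shared direction is no test. The part of the listed RNAs in either was not tested.

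The counts of the nuclear gene lists that follow were not tested against the rates over all genes. With 10 counts required of each sample, those rates were 4516 higher and 4674 lower of 14833 genes against Ctrl. Against Anti they were 5015 and 5266 of 14900, and for Anti against Ctrl 3529 and 3659 of 14842. Among nuclear genes that act on mitochondrial RNA, the transcription list held 9 genes. Against Ctrl 2 rose in CRLM1-OE and none fell, and against Anti 2 rose and 5 fell (2 and 3 under total counts). POLRMT, the mitochondrial RNA polymerase, had 211, 209 and 209.7 CPM in CRLM1-OE, 158, 155 and 155 in Ctrl and 145, 149 and 149 in Anti, a log2 difference of 0.43 against Ctrl (edgeR adjusted p = 2.38e-56) and 0.51 against Anti (edgeR adjusted p = 1.76e-95). It was higher in every CRLM1-OE sample, whereas Anti was lower than Ctrl by -0.10, a difference that vanished under total counts (0.00299). TFAM, which packages mitochondrial DNA and activates its promoters, did not pass against Ctrl (-0.07, edgeR adjusted p = 0.533). It was lower than in Anti by -0.38 and higher in Anti than in Ctrl by 0.28. TFB2M, the factor that opens the promoter for the polymerase, passed against Anti (-0.18, edgeR adjusted p = 0.0142), but not under total counts (adjusted p = 0.140), with adjusted p up to 0.162 over the alternatives, and did not pass in the other comparisons.

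Genes for RNA stability and decay numbered 5, of which 1 rose and 3 fell against Ctrl (1 and 2 under total counts). Against Anti 1 rose and 4 fell. LRPPRC, which binds and stabilises mitochondrial mRNAs together with SLIRP, had 81.7, 76.9 and 74.5 CPM in CRLM1-OE, 127, 127 and 118 in Ctrl and 146, 152 and 147 in Anti. Its order was that of the mitochondrial mRNA share, with the lowest values in CRLM1-OE and the highest in Anti. That order was not particular to LRPPRC, since the group means of TFAM, and of TRNT1 below, had it too. POLRMT was instead highest in CRLM1-OE. Whether LRPPRC had a part in the mRNA share was not tested. The log2 difference of LRPPRC was -0.67 against Ctrl (edgeR adjusted p = 1.34e-98), -0.93 against Anti (edgeR adjusted p = 1.77e-234) and 0.24 for Anti against Ctrl. SLIRP, its partner, went up in CRLM1-OE by 0.21 against Ctrl and 0.19 against Anti. PNPT1, the polynucleotide phosphorylase of the mitochondrial degradosome, did not pass against Ctrl (-0.12, edgeR adjusted p = 0.134). It was lower than in Anti by -0.34, and Anti exceeded Ctrl by 0.19 (adjusted p up to 0.0602).

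Of the 22 genes for RNA processing and modification, 5 rose and 12 fell against Ctrl, which became 7 and 7 under total counts, and 3 rose and 15 fell against Anti. TRNT1, which adds the CCA end to tRNAs, was called as lower against Anti, with 3.28, 4.11 and 3.78 CPM in CRLM1-OE, 7.73, 6.77 and 7.01 in Ctrl and 10.1, 10.3 and 9.93 in Anti. Its log2 difference was -0.96 against Ctrl and -1.45 against Anti. Of the 13 genes for mitochondrial DNA maintenance, 3 rose and 6 fell against Ctrl, which became 6 and 6 under total counts. Against Anti 4 rose and 7 fell. DNA2, a nuclease and helicase of nucleus and mitochondrion, was called as lower against Anti (-1.12), with means of 2.02 ± 0.0441 CPM (SD, n = 3) in CRLM1-OE and 4.40 ± 0.771 in Anti. Among 8 regulators of mitochondrial biogenesis, 5 rose and 2 fell against Ctrl (5 and 0 under total counts). Against Anti 3 rose and 3 fell (4 and 1 under total counts).

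The nuclear subunits of the same complexes were counted beside the mitochondrial ones, and no test of the difference between them was made. For complex IV, 10 nuclear subunits were measured. In CRLM1-OE against Anti, 8 of them were higher and none lower, with a median log2 difference of 0.16, where the 3 mitochondrial subunits were lower. In Anti against Ctrl, 10 of 10 were lower, with a median of -0.22, where MT-CO1 and MT-CO3 were higher. The opposite directions held under total counts, with 10 higher and 0 lower in the first case and 0 higher and 6 lower in the second. Against Ctrl the nuclear complex IV genes were split in CRLM1-OE, with 4 higher and 5 lower, which became 5 and 0 under total counts. The nuclear complex III list gave 3 higher and 5 lower of 9 against Ctrl and 5 higher and 2 lower against Anti, and the 15 nuclear complex V genes gave 2 higher and 6 lower against Ctrl and 5 higher and 1 lower against Anti. Under total counts the splits against Ctrl turned to 5 higher and 1 lower and to 8 higher and 1 lower. For the 7 nuclear core subunits of complex I, 0 rose and 1 fell against Ctrl (6 and 1 under total counts), and 5 rose and 1 fell against Anti.

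Copies of mitochondrial sequence in the nuclear genome can take or lose reads that are kept only when they map uniquely. A long copy at chr1:629081-634924, matched chrM:3911-9755 at 98.5% identity, which covers MT-ND2, the complex IV subunits MT-CO1 and MT-CO2 and both complex V mRNAs. Of windows of 151 bases, the length of a read, that started in the gene, 16.4% in MT-CO1, 13.2% in MT-ND2, 8.60% in MT-RNR1, 5.96% in MT-ND1 and 5.56% in MT-CO2 had an exact nuclear match, against 0 in the other 10 mRNAs and rRNAs. Among the tRNA genes named above, every window that started in MT-TA, 48.5% in MT-TY and 19.2% in MT-TN had one, and none did in MT-TF, MT-TC, MT-TQ or MT-TL1. Windows that started before a tRNA gene and ran into it were not counted for that gene. Those from MT-TA extend over MT-TN and in part into MT-TC, so reads on a gene without a match of its own can still match nuclear sequence. The 31 nuclear pseudogenes in the table held counts equal to 1.39% to 1.52% of the members' counts, nearly all on MTATP6P1 (mean count 34447) and MTND2P28 (mean count 1538), while MTND1P23 came next at 6.78. MTATP6P1 had 778, 775 and 771 CPM in CRLM1-OE, 929.6, 959 and 919.9 in Ctrl and 1009, 1029 and 1017 in Anti. The order of groups was that of MT-ATP6 itself, whose means were 3153, 3936 and 4229 CPM. MTATP6P1 was thus not small beside MT-ATP6, although MT-ATP6 had no window with an exact nuclear match. The part of shared reads in either was not tested.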

How the data were processed

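RNA of 9 HCT116 samples (3 groups of 3 biological replicates, from the sample labels) was analysed. The labels give polyA RNA as the molecule, and the selection step is not given in the sources used here. Per the study's methods and the labels, libraries were sequenced from both ends (151 nt), reads were trimmed, short reads were dropped, and the rest were aligned to GRCh38 with TopHat2. The authors deposited raw counts of uniquely mapped reads per gene (Gencode version 23) and FPKM values to 2 decimals. Depth is given as total counts per sample. The replicates are biological by the methods. The p-values of the main edgeR fit rest on the spread of a gene's abundance class. They do not measure that gene's own spread between replicates, which the SEs give.

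From the counts, shares of the total were compared with exact permutation tests, and all genes with edgeR 4.0.16 (TMM factors, quasi-likelihood test, Benjamini-Hochberg adjustment over all genes with at least 1 count) in R 4.3.3. Adjusted p-values were written down to 1e-300. Replicate SEs were taken on log2(TMM-scaled CPM + 0.01). Alternatives were RLE factors, total counts, low-count filters, DESeq2 1.42.0, limma 3.58.1 on log2(FPKM + 0.1) and log2(FPKM + 1), 1 fit of all 9 samples, a replicate block and leaving out each replicate. A robust spread, the newer quasi-likelihood method and limma voom were added after seeing the data. The fit was checked on simulated counts. Nuclear copies were found with BLAST 2.17.0.

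All mRNAs and rRNAs were named, tRNAs with a mean of at least 100 counts or called, a fixed set of nuclear genes and any other called, and the 3 pseudogenes of highest mean. The members and gene lists were chosen with earlier results of these data known. Same-numbered replicates were not paired, since their deviations correlated between -0.0333 and 0.0783 over 12941 genes.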

Additional observations from a re-analysis of the deposited data

How the results depend on the processing

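Over 30 genes and 3 comparisons, 1562 of 1710 alternative values kept direction and side of the threshold, 81 no longer passed, 12 newly passed and 55 changed sign. The cause was not tested for any of them. Counts of members that passed or were called were as follows where they moved by over 1.5 times. With limma on log2(FPKM + 0.1), 5 were called for CRLM1-OE against Ctrl and 4 for CRLM1-OE against Anti, where 9 passed as higher (8 with log2(FPKM + 1)), and 0 passed as lower for Anti against Ctrl with either pseudocount. Of all genes, 540 were called as higher and 94 as lower of 29558 against Ctrl with the first pseudocount. Against Anti 618 and 412 of 29893 were, and 5109 passed as higher (5161 with the second). For Anti against Ctrl, 1770 of 29423 passed as lower (1753 with the second). With DESeq2, 3 passed as higher for CRLM1-OE against Anti (4482 of 30183 over all genes). For Anti against Ctrl, 6 passed as higher and 2 as lower (2753 and 3097 of 29714 over all genes). Under total counts 1 passed as lower for Anti against Ctrl (2029 of 29714 over all genes). The newer quasi-likelihood method called 2 for CRLM1-OE against Anti (1007 higher and 832 lower of 30183 over all genes). Leaving out 1 replicate gave 1 to 3 called, 9 to 10 higher and 11 lower for CRLM1-OE against Ctrl, 1 to 2 called, 4 to 6 higher and 12 to 13 lower for CRLM1-OE against Anti, and 0 to 1 called, 7 to 10 higher and 2 to 5 lower for Anti against Ctrl. It gave differences in share of -0.859 to -0.783, -1.56 to -1.50 and 0.676 to 0.752 points, and 10 to 11, 10 to 11 and 8 to 10 mRNAs whose pool shares did not overlap. For mRNAs alone the share differed by -0.487 and -1.13 points from Ctrl and Anti, and as a share of FPKM the 3 differences were -1.56, -3.23 and 1.67. With the replicate block, all 102 results kept their side.

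Signs changed for small differences, given as log2 values. Under total counts, MT-TL1 (0.051), MT-TQ (0.0075) and MT-ND5 (0.033) turned positive for CRLM1-OE against Anti, MT-RNR2 (0.10), MT-CO2 (0.08), MT-ND4L (0.033), MT-ND4 (0.066), POLRMT (0.0030) and SLIRP (0.10) for Anti against Ctrl, and TFAM (0.071), TFB2M (0.10) and PNPT1 (0.017) for CRLM1-OE against Ctrl. With limma on FPKM and pseudocounts of 0.1 and 1, the values were 0.044 and 0.043 for MT-TL1, 0.11 and 0.10 for MT-TQ, 0.0197 in both for MT-ND5, 0.0827 in both for MT-RNR2, 0.0692 in both for MT-CO2, 0.0196 in both for MT-ND4L, 0.0529 in both for MT-ND4, 0.0839 and 0.0809 for SLIRP, 0.0442 and 0.0325 for TFAM, and 0.0661 and 0.0594 for TFB2M. In the same comparisons, 1 fit of all samples gave 0.0165 for MT-RNR2, 0.0032 for MT-CO2 and 0.0204 for SLIRP, limma voom gave 0.0092 for MT-TQ and 0.0120 for MT-ND4, and MT-TL1 was 0.0062 with at least 10 counts in every sample, 0.0015 with DESeq2 and 4.0e-05 with RLE factors. SLIRP was 0.00024 with at least 10 counts in every sample. Leaving out 1 replicate gave -0.076 to 0.014 for TFB2M in CRLM1-OE against Ctrl, and, in CRLM1-OE against Anti, -0.064 to 0.053 for MT-TL1 and -0.31 to 0.39 for MT-TQ. For Anti against Ctrl it gave -0.022 to 0.0075 for MT-RNR2, -0.058 to 0.068 for MT-TL1, -0.042 to 0.14 for MT-TA, -0.036 to 0.00011 for MT-CO2, -0.013 to 0.16 for MT-ND3 and -0.031 to 0.036 for SLIRP.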
